A study of Rattus norvegicus with 8 samples.

Results

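Genes that mark the liver cells around the central vein, together with the beta-catenin pathway that sets that zone, were measured in the livers of diabetic rats fed persimmon peel extract. The set held 10 genes fixed by name: Glul, Oat, Slc1a2, Rhbg, Lect2, Rgn, Axin2, Tbx3, Ctnnb1 and Tcf7l2. Every probe set whose platform annotation gave exactly 1 gene symbol, and that symbol was one of the 10, was taken, which gave 23 of the 31042 probe sets other than manufacturer's controls. These 23 sets belonged to 9 of the 10 genes, among 14217 genes with such a set in all. Rhbg was not analysed here because 0 sets carried its symbol. A probe set is a group of short probes on an Affymetrix array that reads 1 stretch of a transcript, and its value is a signal in arbitrary linear units.

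All animals were male Goto-Kakizaki (GK) rats, a lean inbred strain that develops type 2 diabetes, and all were 18 weeks old. One group ate AIN-93G, a purified rodent diet, for 12 weeks (4 livers). The other group ate AIN-93G with persimmon peel (PP) extract over the same 12 weeks (4 livers). Each liver was read on 1 array, and no rats of a non-diabetic strain are among these samples, so the diets can be compared only within diabetic animals. The extract's dose is not stated in the labels.

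Hepatocytes differ along the path of blood from the portal vein to the central vein. Wnt ligands and R-spondin from the endothelium of the central vein keep beta-catenin, the protein of Ctnnb1, from being destroyed in nearby hepatocytes. Beta-catenin then enters the nucleus, pairs with DNA-binding factors of the TCF/LEF family such as the product of Tcf7l2, and switches on the pericentral genes. The innermost rim of these hepatocytes makes glutamine synthetase and scavenges the ammonia that periportal urea synthesis has let through. Whole-liver RNA averages over the zones, so fewer cells of a zone and less RNA per cell cannot be told apart in these data.

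The upstream sequences of 3 members are shown because they hold the letters that TCF/LEF factors recognise, the DNA side of the pathway. The letters searched were CTTTGAA and CTTTGAT on either strand, in the 250 bases before each transcript start of RefSeq's rat assembly GRCr8. Such a match stood in 7.58% of all 33469 windows and in 4 of the members' 11 windows. Those 4 windows belonged to 4 of the 9 members that had a window (Axin2, Glul, Lect2 and Slc1a2). The Slc1a2 window, not printed here, belongs to a start 47838 bases inside the gene's outer bound. The window of the other Slc1a2 start held 0 matches. Tbx3 had no entry. Each sequence runs 5′ to 3′ on the gene's strand with the matches in capitals. The Axin2 window (chr10:94398535-94398784, plus strand) belongs to a start that lies 5406 bases inside the gene's outer bound, whereas the Glul window (chr13:68519250-68519499, plus strand) and the Lect2 window (chr17:8049784-8050033, plus strand) lie before the gene's first base.
Axin2: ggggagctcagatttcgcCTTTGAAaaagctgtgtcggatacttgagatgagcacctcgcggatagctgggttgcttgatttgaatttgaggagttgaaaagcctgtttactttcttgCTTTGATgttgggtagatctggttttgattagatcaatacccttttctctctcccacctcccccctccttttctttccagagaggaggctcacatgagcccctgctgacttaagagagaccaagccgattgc
Glul: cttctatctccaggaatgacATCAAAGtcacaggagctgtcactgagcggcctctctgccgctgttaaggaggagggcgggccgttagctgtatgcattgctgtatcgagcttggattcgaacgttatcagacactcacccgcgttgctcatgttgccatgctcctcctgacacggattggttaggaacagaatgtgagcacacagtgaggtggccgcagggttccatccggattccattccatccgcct
Lect2: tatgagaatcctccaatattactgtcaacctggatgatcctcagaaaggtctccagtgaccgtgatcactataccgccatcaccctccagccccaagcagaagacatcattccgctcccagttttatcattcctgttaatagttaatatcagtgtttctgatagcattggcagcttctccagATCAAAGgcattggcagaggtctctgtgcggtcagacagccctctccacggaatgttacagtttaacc
Axin2 held 2 matches, 1 of each kind, on the gene's own strand and without overlap. Glul and Lect2 held 1 match each, CTTTGAT on the opposite strand, which reads ATCAAAG as printed. Glul has a second listed start, 56566 bases further on, whose window held 0 matches. A match is a description of the letters and not evidence of binding.

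Beta-catenin's own gene had the only probe set that passed the test between the diets. Of the 23 sets, 17 lay above the dimness bound of 34.4 signal units (mean over the 8 arrays) and were tested with limma, and they covered 8 genes. After Benjamini-Hochberg adjustment over all 15521 tested sets, 1 of the 17 was lower on the PP diet at an adjusted p under 0.05, a set of Ctnnb1, and 0 were higher. Over all tested sets the same limma test called 4.53% lower and 0.425% higher, so 1 lower set of 17 is near the background. At an unadjusted p under 0.05 there were 4 lower sets (Oat, Rgn and 2 of Ctnnb1), against 13.4% of all tested sets, and 4 higher sets (1 of Glul and 3 of Tcf7l2), against 6.19%. Of these Tcf7l2 sets, 1394497_at had a control mean of 31.8 units, under the dimness bound. It was tested only through its higher PP arrays, so its place among the higher sets is no support. The median log2 fold change, PP minus control diet, was -0.07 over the 17 sets and -0.01 over all tested sets, and 9 of the 17 were negative against 51.4% of all.

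The 4 arrays of a diet lay fully below the 4 of the other in 3 sets (Rgn and 2 of Ctnnb1), which held for 10% of all tested sets, and fully above in 1 set of Tcf7l2, which held for 2.87%. Scaling changed which members passed. After quantile normalization 0 of the 17 member sets were lower and 3 were higher (1 of Glul and 2 of Tcf7l2), where 3.84% of all tested sets were called lower and 1.75% higher. Lower calls over the whole array thus went from 703 to 596 and higher calls from 66 to 271, and the lower share of all calls from 91.4% to 68.7%. After centring each array on its median, 2 member sets were lower (Rgn and a set of Ctnnb1) and 1 was higher (a set of Tcf7l2), where 5.46% of all tested sets were called lower and 0.58% higher.

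**Figure D1:**
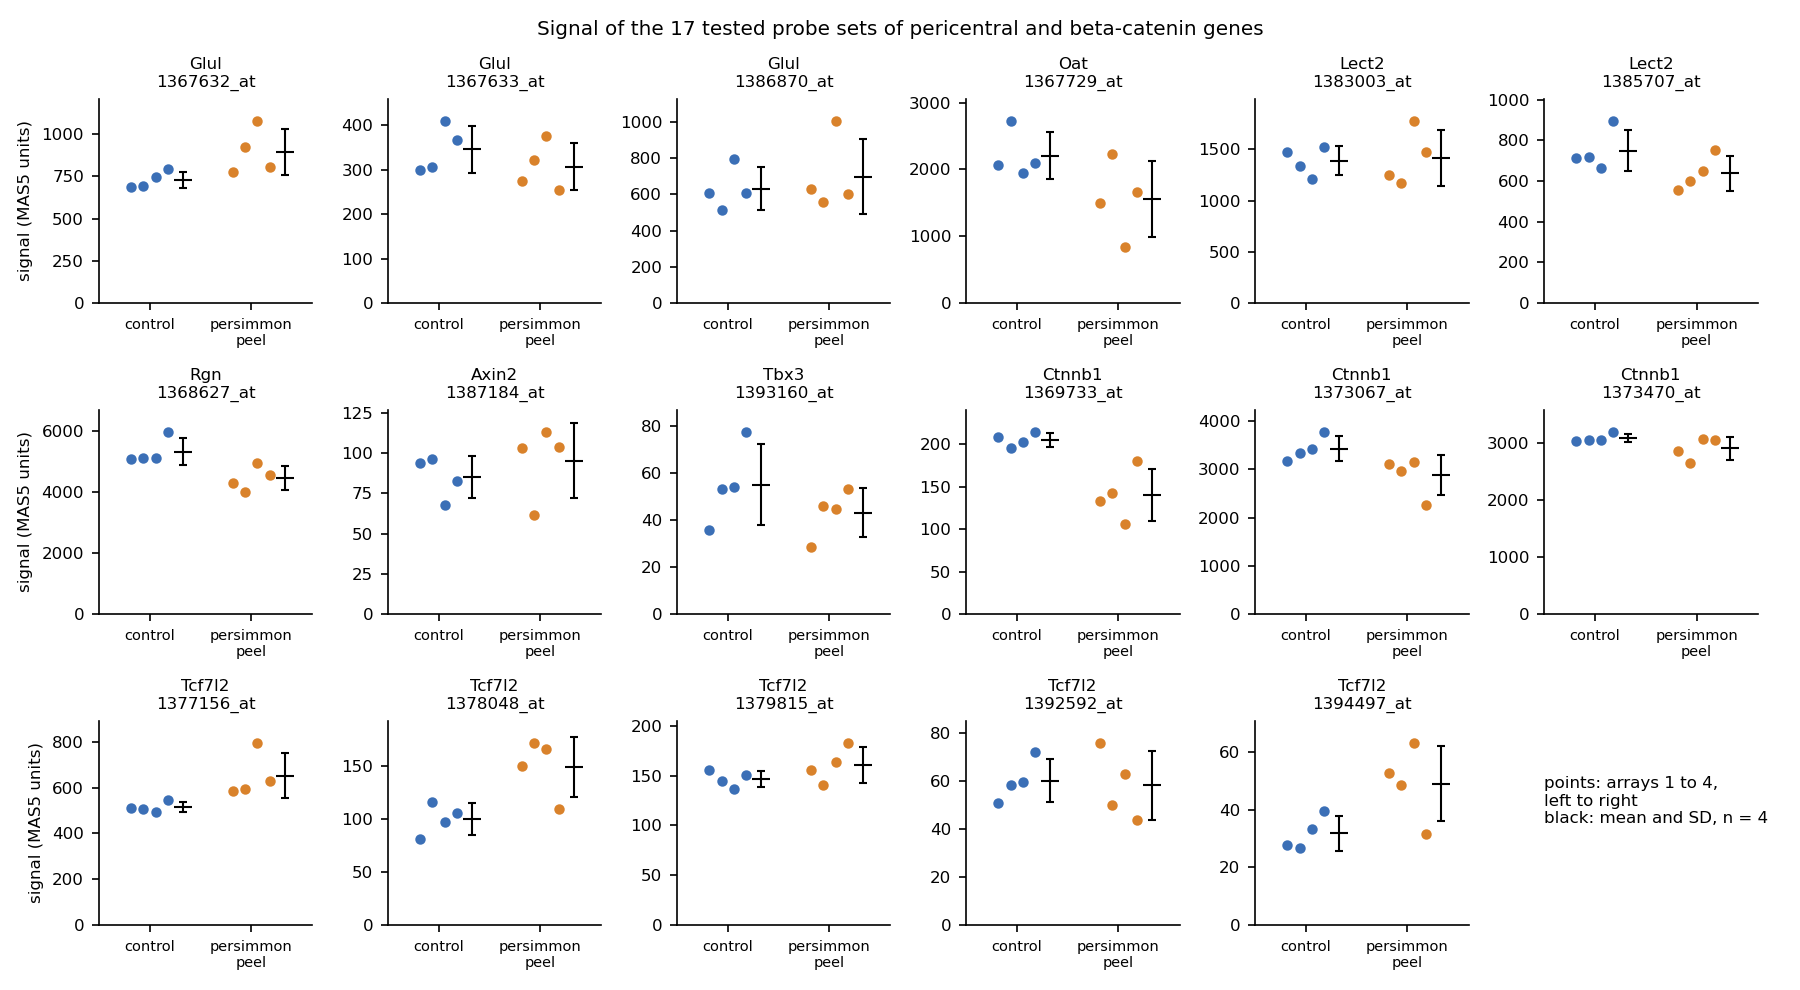
Signal in linear MAS5 units (y axis, from 0) of the 17 tested probe sets on each of the 8 arrays, with 1 panel per set, control diet in blue and PP diet in orange, and the mean and SD of 4 arrays in black. The control points of Ctnnb1 set 1369733_at lie between 195 and 215 and every PP point is lower, while in most other panels the diets overlap.

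Across the whole table the arrays were alike, with median signals of 33.2 to 39.2 units and pairwise correlations of r = 0.967 to 0.986 over the tested sets. Beta-actin and GAPDH have control sets for several parts of their transcripts, which are read as log2 ratios to the 3′ set. The beta-actin ratio of the middle set was -0.76 ± 0.02 on the control diet and -1.06 ± 0.11 on the PP diet (SD, n = 4 each) without overlap, with PP array 1 lowest at -1.18 and PP array 3 next at -1.09. The exact two-sided permutation p was 0.0286, the smallest this design allows (0.0571 adjusted over 4 ratios), and the 5′ ratio of beta-actin gave the same p, its diets apart by a narrow margin (-1.68 ± 0.12 and -1.97 ± 0.22). The GAPDH ratios overlapped between the diets, at -0.58 ± 0.03 and -0.59 ± 0.05 for the middle set (exact permutation p = 0.857) and at -0.29 ± 0.10 and -0.43 ± 0.08 for the 5′ set (exact permutation p = 0.0857). With the middle beta-actin ratio as a covariate in limma 0 member sets passed, but that ratio and the diet can hardly be told apart. Without PP arrays 1 and 3 also 0 member sets passed, and the middle ratios of PP arrays 2 and 4 (-0.92 and -1.06) still lay below all controls. Marker genes of other cells were read in their brightest tested set. Of the hepatocyte markers, 0 of 11 passed in limma (1 lower and 2 higher at an unadjusted p under 0.05), 7 were negative and the median was -0.09, with Serpina1 at -0.08 and Apoa2 at -0.11. The 2 higher ones, named after their values were seen, were the transcription factor genes Foxa3 (0.50, adjusted p = 0.160) and Hnf4a (0.23, adjusted p = 0.127). Of the endothelial markers 1 of 8 was lower (Fcgr2b, named after its value was seen, -0.42, adjusted p = 0.0090), against 1.93% of the brightest sets of all genes. Of these 8 markers 6 were negative, with Lyve1 at -0.24 and Kdr at -0.10, and the positive ones, named after their values were seen, were Pecam1 (0.27) and Stab1 (0.17), which did not pass. Among 7 macrophage, 7 stellate, 3 blood cell and 1 cholangiocyte markers 0 passed in limma and 0 had an unadjusted p under 0.05, with C1qa at 0.21, Clec4f at 0.20, Col3a1 at -0.13, Reln at -0.04, Hbb at -0.05, Alas2 at 0.02 and Epcam at 0.00. Of the 7 stellate markers 6 were negative, with a median of -0.24. Of the 7 macrophage markers 1 was negative (median 0.12), and of the 3 blood cell markers 2 were (median -0.05). The summed signal of the endothelial markers was 4937 to 5228 units on control and 4081 to 5143 on PP arrays, and that of the macrophage markers 5419 to 7135 and 6080 to 9912.

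Glul encodes glutamine synthetase, the enzyme that defines the innermost pericentral rim by joining ammonia to glutamate. Its set 1367632_at read 685, 695, 745 and 792 units on control arrays 1 to 4 and 779, 922, 1080 and 805 on PP arrays 1 to 4. The PP values were higher apart from PP array 1, which lay below control array 4, so the diets overlapped by that pair. The means were 729 ± 49.3 and 896 ± 137 (SD, n = 4 each), a log2 fold change of 0.29 (SE 0.11, 95% interval 0.06 to 0.52, adjusted p = 0.147), or 1.22-fold. The set passed after quantile normalization (0.34, adjusted p = 0.0423) and was 0.19 (adjusted p = 0.265) without PP array 3.

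The other Glul sets had a smaller and a negative point estimate. Set 1386870_at read 607, 512, 796 and 610.3 units on control and 629, 559.9, 1007 and 599.8 on PP arrays, where PP array 3 stood far above the rest. Its log2 fold change was 0.12 (SE 0.17, 95% interval -0.24 to 0.49, adjusted p = 0.732), and it ran from -0.066 without PP array 3 to 0.24 without control array 3. The difference between this set and the brightest was not tested. Set 1367633_at read 300.4, 306, 411 and 368 units on control and 276, 322, 377 and 255 on PP arrays, with wide overlap and a log2 fold change of -0.17 (SE 0.14, 95% interval -0.47 to 0.12, adjusted p = 0.519).

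Within each array the gap between these Glul sets did separate the diets. The log2 difference of the dimmest (1367633_at) minus the brightest set (1367632_at) was -1.19, -1.19, -0.86 and -1.11 on control arrays 1 to 4 and -1.50, -1.52, -1.52 and -1.66 on PP arrays 1 to 4. Every PP value was below every control value. The mean gap was -1.09 ± 0.15 and -1.55 ± 0.07 (SD, n = 4 each), a change of -0.46 (SE 0.13, adjusted p = 0.0374 over 2295 genes with several tested sets, limma). Of those 2295 genes 11.9% had such a gap called lower and 0.915% called higher, so Glul was 1 of many. The call ended in 7 of the 8 fits that left out 1 array, all but the one without PP array 2. A gap between sets of 1 gene means that they changed unequally and does not say which of them follows the whole transcript.

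**Figure D2:**
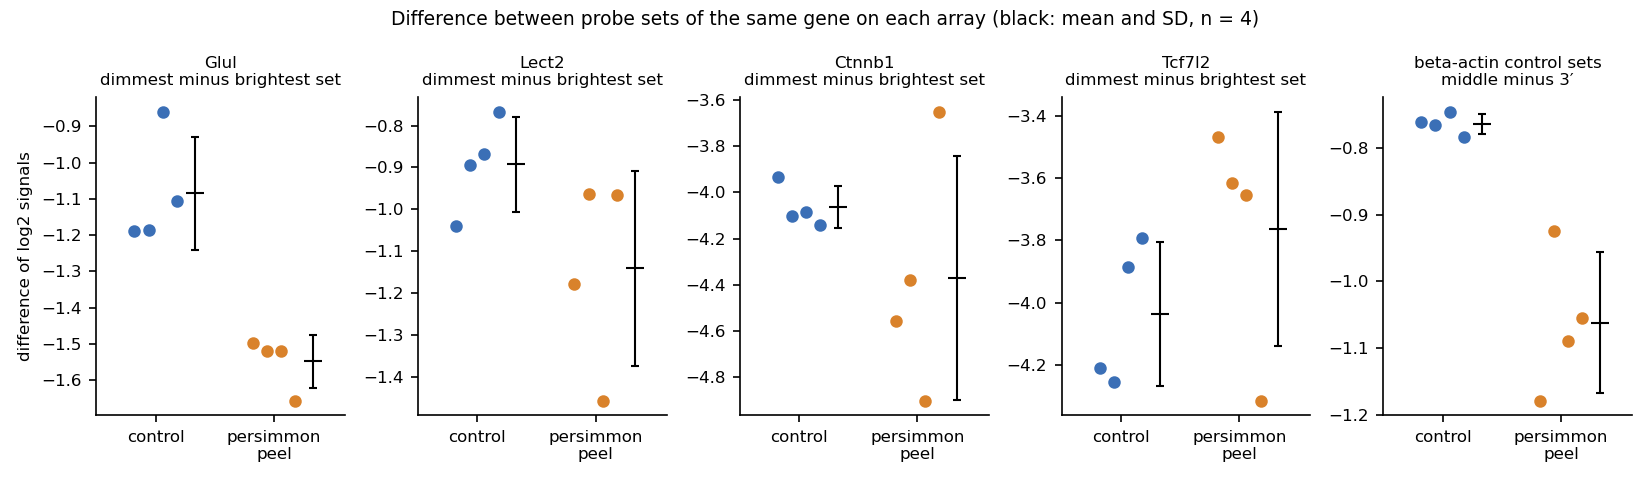
Difference of log2 signals between the dimmest and the brightest tested set of 4 genes, and between the middle and the 3′ control set of beta-actin (y axes, each with its own range), on each array, with mean and SD of 4 arrays in black. The diets are apart for Glul (-1.09 against -1.55) and for beta-actin (-0.76 against -1.06) and overlap for Lect2, Ctnnb1 and Tcf7l2.

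Oat, ornithine aminotransferase, makes glutamate from ornithine in the same pericentral cells that hold glutamine synthetase. Its single set read 2063, 2729, 1946 and 2092 units on control and 1502, 2226, 846 and 1658 on PP arrays. PP arrays 1, 3 and 4 lay below all control arrays, and PP array 2 lay above 3 of them. The means of 2207 ± 353 and 1558 ± 567 (SD, n = 4 each) gave a log2 fold change of -0.57 (SE 0.21, 95% interval -1.02 to -0.12, adjusted p = 0.142). The value was -0.77 (adjusted p = 0.0201) without PP array 2, -0.31 (adjusted p = 0.251) without PP array 3 and -0.19 (adjusted p = 0.622) without PP arrays 1 and 3. Oat and the brightest Glul set thus had point estimates of opposite sign, and neither passed the test.

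The carriers of the same zone gave little to compare. Slc1a2, a glutamate transporter of pericentral hepatocytes, had 2 sets, both under the dimness bound on every array, with signals of 0.497 to 9.02 units on control and 1.45 to 15.8 on PP arrays. At such signals a fold change has no use, and in a fit with no filter on dim sets, in which 1.42% of all sets were called lower and 0.0838% higher, neither passed (adjusted p = 0.616 and 0.475). Rhbg, an ammonium carrier, had no set to read.

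Lect2 and Rgn are other pericentral genes with strong signals in liver. Lect2 encodes a secreted hepatokine, and its set 1383003_at read 1472, 1339, 1214 and 1526 units on control and 1254, 1167, 1778 and 1471 on PP arrays. The PP arrays spanned a wider range that enclosed the control arrays, and the log2 fold change was 0.02 (SE 0.12, 95% interval -0.24 to 0.28, adjusted p = 0.958), with a sign that turned after median centring (-0.0041) or without PP array 3 (-0.099) and a value of 0.10 without PP array 2. The dimmer set 1385707_at read 716, 720.2, 665 and 897 units on control and 554, 598, 648 and 753 on PP arrays. In that set 3 PP arrays lay below all controls and the fourth overlapped them, for a log2 fold change of -0.23 (SE 0.12, 95% interval -0.48 to 0.02, adjusted p = 0.288), which was -0.14 without control array 4.

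Rgn encodes regucalcin, a gluconolactonase of vitamin C synthesis in rats. Its single set read 5081, 5113, 5108 and 5986 units on control and 4312, 4014, 4949 and 4567 on PP arrays. All 4 PP arrays lay below all 4 control arrays. The means of 5322 ± 443 and 4460 ± 396 (SD, n = 4 each) gave a log2 fold change of -0.26 (SE 0.08, 95% interval -0.42 to -0.09), and its adjusted p of 0.0783 missed the threshold. It passed in 2 of 18 refits, after median centring (-0.28, adjusted p = 0.0463) and without PP array 3 (-0.31, adjusted p = 0.0468). Without control array 4, the highest control, it was -0.20 (adjusted p = 0.226). The adjusted p was 0.218 with no filter and 0.227 with no intensity trend.

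Axin2 is a scaffold of the complex that destroys beta-catenin and is itself switched on by beta-catenin, so that its RNA is often used as a readout of the pathway. Its set read 93.9, 96.7, 68.0 and 83.0 units on control and 103, 61.5, 113 and 104 on PP arrays. PP arrays 1, 3 and 4 were the highest and PP array 2 the lowest of all 8. The log2 fold change was 0.14 (SE 0.19, adjusted p = 0.734), and its 95% interval of -0.27 to 0.54 allows a change from 0.830-fold to 1.46-fold. The value was 0.34 (SE 0.15, adjusted p = 0.213) without PP array 2, 0.03 without control array 3 and -0.081 without PP arrays 1 and 3.

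Tbx3, a transcription factor and beta-catenin target in liver, had 4 sets, of which 3 lay under the dimness bound. The brightest, 1393160_at, read 36.0, 53.2, 54.0 and 77.7 units on control and 28.5, 45.9, 44.9 and 53.5 on PP arrays, which overlapped. Its log2 fold change was -0.34 (SE 0.25, 95% interval -0.86 to 0.19, adjusted p = 0.480). It was -0.15 without PP array 1, -0.16 without control array 4, -0.10 without PP arrays 1 and 3, and -0.53 without control array 1, and passed in none of these fits. The 3 dim sets read between 1.79 and 46.5 units on control and between 2.49 and 32.7 on PP arrays, and in a fit with no filter they did not pass (adjusted p = 0.617 to 0.867).

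Ctnnb1 encodes beta-catenin itself, which is a link of cadherin junctions as well as the pathway's effector. Its set 1369733_at was the only member set called. It read 208, 195, 202 and 215 units on control and 133, 143, 106 and 180.3 on PP arrays. All 4 PP arrays lay below the narrow control range, PP array 3 furthest and PP array 4 nearest. The means of 205 ± 8.37 and 140.3 ± 30.9 (SD, n = 4 each) gave a log2 fold change of -0.57 (SE 0.14, 95% interval -0.88 to -0.26, adjusted p = 0.0338), or 0.673-fold.

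The brighter Ctnnb1 sets had smaller point estimates. Set 1373067_at read 3175, 3350, 3429 and 3781 units on control and 3120, 2963, 3156 and 2265 on PP arrays. The PP arrays again lay below all controls, array 3 by a small step and array 4 by the most, and the log2 fold change of -0.27 (SE 0.10, 95% interval -0.48 to -0.05, adjusted p = 0.151) missed the threshold. It was -0.15 without PP array 4 (adjusted p = 0.337) and -0.40 without PP arrays 1 and 3 (adjusted p = 0.117). Set 1373470_at read 3043, 3052, 3060 and 3202 units on control and 2864, 2649, 3068 and 3056 on PP arrays. Those ranges overlapped, with a log2 fold change of -0.09 (SE 0.07, 95% interval -0.24 to 0.06, adjusted p = 0.516), so that a fall beyond 0.848-fold lies outside the interval for that stretch of the transcript.

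The Ctnnb1 gap between the dimmest tested and the brightest set changed by -0.31 (SE 0.23, adjusted p = 0.393, limma) and overlapped between diets. The fourth set, 1375284_at, lay under the bound at 4.79 to 11.8 units on control and 0.504 to 6.80 on PP arrays. The call of set 1369733_at rested on most arrays being kept: it passed without PP array 2 or PP array 4 and missed in the other 6 fits that left out 1 array (adjusted p = 0.0589 to 0.104). It also missed after quantile normalization (-0.56, adjusted p = 0.0676), without the intensity trend (adjusted p = 0.0659) and without PP arrays 1 and 3 (-0.35, adjusted p = 0.246). Those arrays had the lowest middle beta-actin ratio. The 5′ ratio was lowest on PP arrays 3 (-2.29) and 4 (-1.91), with PP array 1 at -1.82.

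**Figure D3:**
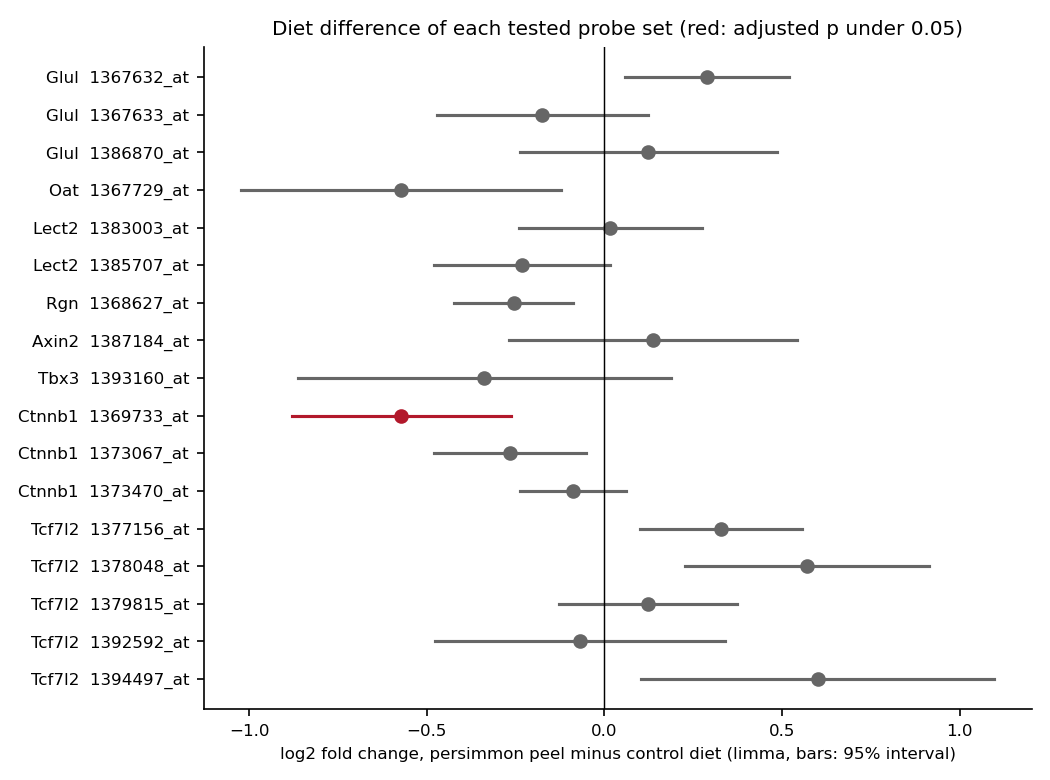
Log2 fold change of each tested probe set, PP minus control diet (x axis), with its 95% interval from limma, and 1 line per set (y axis). The Ctnnb1 set 1369733_at, in red at -0.57, is the only one past the adjusted threshold, and the intervals of 8 sets leave out 0.

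Tcf7l2 encodes a TCF factor that carries beta-catenin to DNA in hepatocytes, and 4 of its 5 tested sets had positive log2 fold changes. The brightest, 1377156_at, read 511, 508, 493 and 547 units on control and 584, 594, 796 and 630.0 on PP arrays. All 4 PP arrays lay above all 4 control arrays. The means of 515 ± 23.1 and 651 ± 98.5 (SD, n = 4 each) gave a log2 fold change of 0.33 (SE 0.11, 95% interval 0.10 to 0.56), and its adjusted p of 0.0942 missed the threshold.

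Set 1378048_at of Tcf7l2 read 81.0, 116, 97.1 and 106 units on control and 150.3, 172, 166 and 109 on PP arrays. PP arrays 1 to 3 lay above all controls and PP array 4 among them, for a log2 fold change of 0.57 (SE 0.16, 95% interval 0.23 to 0.91, adjusted p = 0.0571). Both sets passed after quantile normalization (0.37, adjusted p = 0.0202, and 0.58, adjusted p = 0.0422), and 1378048_at also after median centring (0.55, adjusted p = 0.0286) and without PP array 4 (0.71, adjusted p = 0.0201). Without PP array 3 they were 0.23 (adjusted p = 0.152) and 0.51 (adjusted p = 0.125). Without PP arrays 1 and 3 they were 0.25 (adjusted p = 0.270) and 0.47 (adjusted p = 0.325).

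The remaining Tcf7l2 sets were dimmer or flatter. Set 1394497_at read 27.6, 26.6, 33.3 and 39.5 units on control and 52.7, 48.5, 63.2 and 31.7 on PP arrays, with PP array 4 again among the controls (0.60, SE 0.23, adjusted p = 0.160). Its control mean of 31.8 units lay under the dimness bound of 34.4, and without PP arrays 1 and 3 it was no longer tested. Set 1379815_at read 137 to 156 units on control and 140.2 to 183 on PP arrays (0.12, SE 0.12, adjusted p = 0.601). Set 1392592_at read 50.6 to 72.1 and 43.8 to 75.9 units (-0.07, SE 0.19, adjusted p = 0.881). The gap between the dimmest and the brightest Tcf7l2 set changed by 0.27 (SE 0.20, adjusted p = 0.384), in the direction opposite to Glul and without passing. That dimmest set is 1394497_at, so this gap carries the same limit.

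Over the genes, the brightest tested set had a negative log2 fold change in 4 of 8 members and a positive one in the other 4. After each diet's mean was taken off, the log2 values of the brightest Glul set followed those of its other sets over the 8 arrays (Pearson r = 0.87 and 0.67), those of Oat went the other way (r = -0.57), and Axin2 showed little relation (r = -0.13). Tcf7l2 set 1377156_at had r = 0.80 with Glul. Among the other members with several tested sets, the relation between sets varied. The called Ctnnb1 set 1369733_at had r = -0.75 with the brightest Ctnnb1 set 1373067_at and -0.03 with 1373470_at, which had -0.16 with each other. The Lect2 sets had r = 0.60, and the brightest Tcf7l2 set had r = 0.17 to 0.47 with its other sets. Those other Tcf7l2 sets ranged between r = -0.73 (1378048_at with 1379815_at) and 0.78 (1392592_at with 1394497_at) with each other. The 5 genes most like Glul by this measure among 9173 were Alox5ap (r = 0.98), Slc27a4 (0.96), Pf4 (0.96), Znhit2 (0.96) and Mbl1 (0.96), and no other member was among them, Tcf7l2 ranking 429. These correlations share the arrays' scaling and rest on 8 arrays, of which a few set the value, so they are a description only.

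The rest of the pathway was read from lists of genes, without the members, in the brightest tested set of each. Over all 9174 genes, 1.93% of such sets were called lower and 0.469% higher, with a median log2 fold change of 0.01. Of Wnt ligands and receptors 8 of 21 genes on the array were bright enough to test, which left out Wnt2, Rspo3 and Lgr5, and 0 passed in limma (1 lower at an unadjusted p under 0.05, median -0.06). The smallest p was that of Lgr4, an R-spondin receptor, at 240 ± 26.4 and 174 ± 35.3 units (SD, n = 4 each; -0.48, SE 0.14, adjusted p = 0.0686), before Lrp5, a Wnt co-receptor (0.21, adjusted p = 0.389). Of Wnt inhibitors 3 were tested and 0 passed (0 at an unadjusted p under 0.05, median 0.10), with Znrf3, which removes Wnt receptors, at 0.19 and Sfrp1 at 0.10.

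Of 21 tested genes of beta-catenin turnover, which include Axin1 (0.11), Apc (0.01) and Gsk3b (0.08), 0 passed in their brightest set (1 higher at an unadjusted p under 0.05, median 0.07). The kinase subunit gene Csnk2a1 had 0.34 (adjusted p = 0.106) and Csnk1a1, the kinase that primes beta-catenin for destruction, -0.18 (adjusted p = 0.279). Of 20 nuclear cofactors 0 passed (4 higher and 0 lower at an unadjusted p under 0.05, median 0.04), led by the corepressor gene Tle3 (0.52, SE 0.20, adjusted p = 0.146) and by Hdac1 (0.32, SE 0.12, adjusted p = 0.151). Of 5 cadherin junction genes, the other place where beta-catenin binds, 0 passed (0 at an unadjusted p under 0.05, median 0.09), with Ctnnd1 at 0.21 and Cdh1 at 0.09. Of 5 other target genes 0 passed (0 at an unadjusted p under 0.05, median 0.19), with Jun at 0.23 and Znrf3 as above.

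Other genes of both zones were read in the same way. Of 23 other pericentral genes 0 passed in limma (5 lower and 0 higher at an unadjusted p under 0.05, median -0.10), and 17 had a negative value. The vasopressin receptor gene Avpr1a led with 1000 ± 164 and 741 ± 127 units (SD, n = 4 each; -0.43, SE 0.13, adjusted p = 0.073), before Ugt2b1, a glucuronosyltransferase (-0.23, SE 0.08, adjusted p = 0.104). The pericentral P450 genes Cyp2e1 and Cyp1a2 had clear signals, 10314 ± 408 and 1570 ± 458 units on control and 9618 ± 590 and 1316 ± 106 on PP arrays (SD, n = 4 each), and did not pass (adjusted p = 0.367 and 0.452). Of 24 periportal genes 2 were lower in limma, with a median of -0.07. These were Tat, which starts tyrosine breakdown (-0.54, SE 0.11, adjusted p = 0.01), and Otc of the urea cycle (-0.30, SE 0.07, adjusted p = 0.0246). At an unadjusted p under 0.05, 4 periportal genes were lower and 1 higher, and 16 of the 24 had a negative value, much as in the pericentral list. The enzymes on either side of Glul and Oat were read too: of 16 genes of ammonia and glutamine handling, 2 were lower and 0 higher in limma. These were Glud1, which releases ammonia from glutamate (-0.29, SE 0.08, adjusted p = 0.0378), and the aminotransferase gene Got1 (-0.58, SE 0.15, adjusted p = 0.0446). At an unadjusted p under 0.05, 4 of the 16 were lower and 0 higher, and 10 had a negative value (median -0.07). Gls2, the periportal glutaminase, had -0.14 (adjusted p = 0.333).

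**Figure D4:**
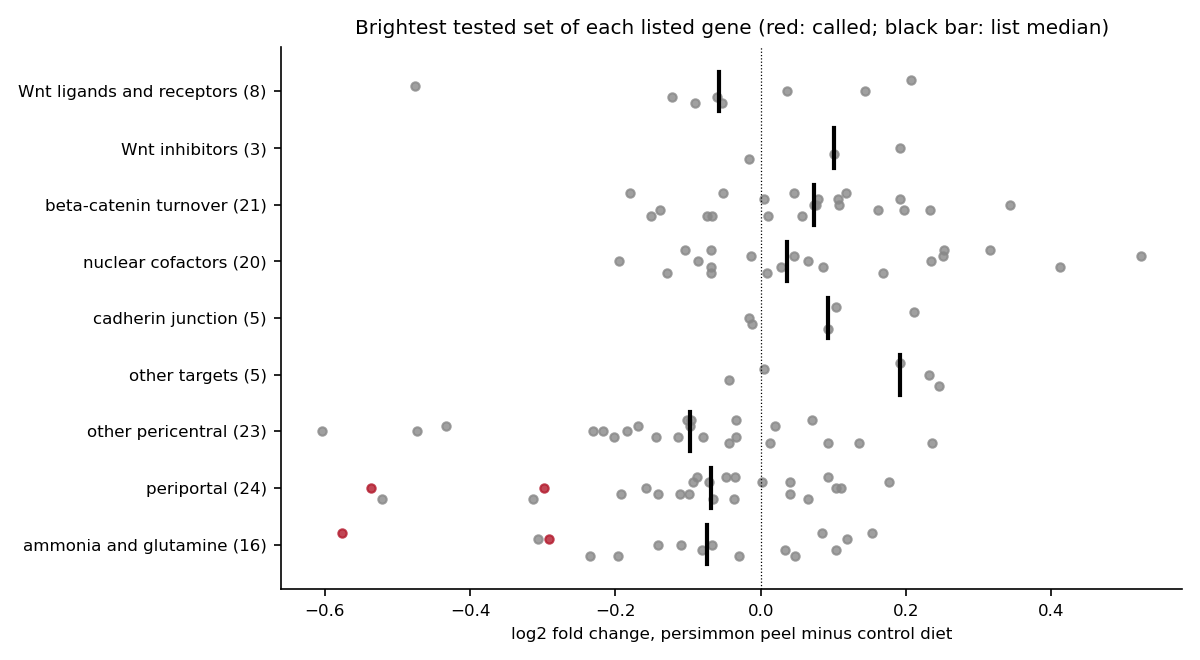
Log2 fold change, PP minus control diet (x axis), of the brightest tested set of each gene in 9 lists of pathway and zonation genes (y axis, with the number of genes), red where called and with the list median as a black bar. Called genes, all lower, stand in the periportal list (Tat and Otc) and in the ammonia and glutamine list (Glud1 and Got1), and the medians of the pericentral (-0.10) and periportal (-0.07) lists lie close together.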

How the data were processed

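Liver RNA of 8 rats was measured on 1-colour Affymetrix arrays. The authors deposited 1 linear intensity per array for each of 31099 probe sets, and the submitters' processing notes name MAS5. Detection calls were not used here, and the scaling target is unknown. Precision is limited by 4 arrays per diet. Per the labels' numbering each array is 1 liver. Symbols came from the platform annotation, updated through RefSeq (GRCr8): 20826 of 31042 sets had 1 symbol, and 20758 of these matched RefSeq.

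Values were taken to log2 without pseudocount, the dimmest 50% of sets were left out, and diets were compared with limma 3.58.1 in R 4.3.3 (intensity trend, two-sided, Benjamini-Hochberg at 0.05 over 15521 sets); the fit was tested on simulated data. Gaps between the sets of a gene were fitted in the same way without trend. From lists without members, called genes (up to 6 with the smallest p) or otherwise the 2 with the smallest p are named, from lists of other cells the 2 with the highest level, and for Glul the 5 most alike. The members and lists were chosen with earlier results of these data known. Of the value columns 0 were left unused. Alternatives were median centring, quantile normalization, no filter, the upper 30% by signal, a pseudocount of 16, no trend, the replicate block, single arrays left out, the beta-actin covariate, PP arrays 1 and 3 left out, and the brightest set per gene.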

Additional observations from a re-analysis of the deposited data

Results flagged for a closer look

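In 6 of 46 groups of 4 arrays, 1 array stood apart from the other 3 by Dixon's ratio (gap over range), which chance gives in about 1 of 20 groups. On the PP diet, Glul set 1386870_at had array 3 at 1007 units against 559.9 to 629 (ratio 0.846), Slc1a2 set 1369694_at had array 2 at 1.498 against 10.9 to 11.9 (0.905), and Tbx3 set 1381464_at had array 3 at 32.7 against 13.5 to 16.6 (0.840). On the control diet, Slc1a2 set 1369693_a_at had array 1 at 7.61 against 1.37 to 1.90 (0.915), Rgn had array 4 at 5986 against 5081 to 5113 (0.965), and Ctnnb1 set 1373470_at had array 4 at 3202 against 3043 to 3060 (0.897). Both Slc1a2 sets and this Tbx3 set lie under the dimness bound.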

How the results depend on the processing

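Replicate numbers showed no sign of pairing: deviations of same-numbered arrays correlated with r between -0.08 and 0.05. Such low values cannot show that the animals were unpaired. With the replicate block 2 member sets were lower (Ctnnb1 1369733_at and Oat, -0.57, adjusted p = 0.0159), 0 gaps between sets of a member were called lower, and all lower calls numbered 596. Lower member sets numbered 0 after quantile normalization, with no filter, with no intensity trend, with the beta-actin covariate, without PP arrays 1 and 3 and in the brightest sets alone, 2 after median centring, and 0 to 2 with single arrays left out; higher ones numbered 3 after quantile normalization, 1 after median centring and 0 to 1 with single arrays left out. The fit of the brightest sets does not hold the called Ctnnb1 set 1369733_at, so it could not keep that call. Gaps called lower numbered 0 with no filter, with the covariate and without PP arrays 1 and 3, and 0 to 1 with single arrays left out. Over all sets, lower and higher calls numbered 703 and 66 as reported, 596 and 271 after quantile normalization, 441 and 26 with no filter, 493 and 41 in the upper 30%, 486 and 33 with no trend, 0 and 0 with the covariate, 76 and 1 without PP arrays 1 and 3, 78 and 5 in the brightest sets, and 294 to 942 and 12 to 269 with single arrays left out. Of 292 refitted member values, 255 kept sign and side of the threshold, 11 lost the call (all Ctnnb1 1369733_at), 9 gained one and 17 changed sign. With the covariate, sign changed for Glul 1367633_at (0.0017) and 1386870_at (-0.18), Oat (0.29), Lect2 1383003_at (-0.27), Axin2 (-0.84), Tbx3 1393160_at (0.29) and Tcf7l2 1379815_at (-0.078). Without PP arrays 1 and 3 it changed for Glul 1386870_at (-0.11), Lect2 1383003_at (-0.077) and Axin2 (-0.081). Lect2 1383003_at also turned after median centring (-0.0041) and without control array 3, PP array 3 or PP array 4 (range over the 8 fits that left out 1 array -0.099 to 0.10), Glul 1386870_at without PP array 3 (range -0.066 to 0.24), and Tcf7l2 1392592_at without control array 4 or PP array 4 (range -0.21 to 0.057). The cause was not tested. Sets under the dimness bound have no usable fold change.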

Other observations

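Several genes of the lists had a dimmer set called lower while their brightest set did not pass. They are named after their values were seen. This was common over the whole array. In limma 4.53% of all 15521 tested sets were called lower, against 1.93% of the brightest sets of 9174 genes. The bases differ, as the first also holds sets without exactly 1 gene symbol. Of 2295 genes with several tested sets, 11.9% had a dimmest minus brightest gap called lower. Cps1, which starts the urea cycle, had -0.55 (SE 0.08, adjusted p = 0.00224, limma) in set 1370151_at, whose mean signal went from 7968 to 5465 units, and -0.07 (adjusted p = 0.576) in its brightest set. Gulo, the last enzyme of vitamin C synthesis and so a neighbour of Rgn, had -0.44 (SE 0.07, adjusted p = 0.00454) and -0.17 (adjusted p = 0.157). Rnase4 had -0.41 (adjusted p = 0.00605) and -0.10 (adjusted p = 0.387). The mitochondrial ornithine carrier gene Slc25a15 had -0.64 (adjusted p = 0.0222) in its dimmest of 5 sets and values between -0.24 and -0.0061 in the other 4. Slc25a13 had -0.66 (adjusted p = 0.00573) in set 1379592_at and -0.23 (adjusted p = 0.101) in its brightest set. Gpt2 also had a dimmer set called lower, with its brightest set at -0.11 (adjusted p = 0.631).

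Within the beta-catenin lists the same held for Tnks2, a tankyrase that marks axin for removal (-0.92, adjusted p = 0.00688, and -0.07, adjusted p = 0.715). For Hdac1 (-0.54, adjusted p = 0.0291, and 0.32, adjusted p = 0.151) and Ppp2r1a (-0.53, adjusted p = 0.0313, and 0.16, adjusted p = 0.408) the second value, of another set of the gene, had the opposite sign.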
